A study of Drosophila melanogaster with 3 samples.

Results

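Binding of CG6765, carried as a C-terminal fusion to eGFP, a green fluorescent protein, was examined at 6 genes of the Drosophila melanogaster tracheal and epithelial programmes, trh, btl, bnl, vvl, rib and grh. These genes were taken by name out of 13945 protein-coding genes on the 6 major chromosome arms, and earlier results of these data were known when they were chosen. The material was whole embryos of mixed sex from a transgenic line that stably carries CG6765-eGFP, collected 0 to 24 h after laying, and sonicated chromatin of 200 to 800 bp was immunoprecipitated and sequenced (ChIP-seq). The description names an antibody against GFP, whereas the antibody field names CG6765. All samples belong to 1 group with 3 biological replicates, each a separate biosample of the same transgenic strain. The control experiment named in the labels was not analysed here, so no background level is given. All 58 of the 30000 pooled candidate summits that lay in a gene body or within 5 kb on either side were described, and 6 of these were among the 3816 summits that passed the authors' reproducibility threshold.

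Tracheal cells of the fly embryo are set apart by the PAS-domain transcription factor Trachealess (trh) together with the POU-domain factor Ventral veins lacking (vvl), and they then branch towards cells that secrete the fibroblast growth factor Branchless (bnl), which is sensed by its receptor Breathless (btl) on tracheal cells. Ribbon (rib), a nuclear protein with a BTB domain, is needed for the movement and lengthening of tracheal and salivary gland tubes. Grainy head (grh) is a transcription factor of epithelia that acts in tracheal tube size, in cuticle and in wound repair. Since whole embryos were used, a site bound in few cells and a site bound weakly in many cannot be told apart.

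The windows below, each a summit with 50 bp on either side, show what kind of DNA lay under the signal at trh, bnl and vvl. They were read 5' to 3' in the direction of transcription of the gene from the RefSeq release of the dm6 assembly. The first pair are the thresholded summits of trh and bnl, and the others are the strongest candidates of bnl and vvl below the threshold, added for contrast. Capitals in the trh window mark both arms of an exact inverted repeat, and capitals in the bnl promoter window mark the word ACGTG, the core of sites bound by Trachealess with its partner Tango.
trh thresholded summit, chr3L:377679-377779, minus strand: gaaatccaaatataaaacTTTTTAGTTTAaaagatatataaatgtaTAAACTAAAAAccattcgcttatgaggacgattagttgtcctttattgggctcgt
bnl thresholded promoter summit, chr3R:19836818-19836918, minus strand: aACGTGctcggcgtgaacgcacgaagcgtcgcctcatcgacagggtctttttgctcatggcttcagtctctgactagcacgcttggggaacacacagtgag
bnl intron summit below the threshold, chr3R:19831091-19831191, minus strand: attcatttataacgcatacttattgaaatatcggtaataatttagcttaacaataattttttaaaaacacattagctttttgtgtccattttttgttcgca
vvl intergenic summit below the threshold, chr3L:6797452-6797552, plus strand: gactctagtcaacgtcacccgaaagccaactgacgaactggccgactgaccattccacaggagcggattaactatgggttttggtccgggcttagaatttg

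The strongest site of the 6 genes, at trh, and the bnl promoter differed in base composition. The trh window had a GC content of 27.7% and the bnl promoter window 56.4%, while the median over all 3816 thresholded summits was 36.6%, with quartiles at 28.7% and 45.5%. The bnl intron window had 23.8% and the vvl window 51.5%. The inverted repeat under the trh summit has arms of 11 bp with 17 bp between them. An exact inverted repeat with arms of 11 bp or more was present in 0.760% of all thresholded windows and in 0.542% of all other candidate windows. In the other 5 thresholded windows at the 6 genes the longest arms reached at most 7 bp. The repeat was noticed after the sequence had been read, and it is given as a description.

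The transcription factor gene trh held 1 strong site and otherwise weak candidates. In this gene (FBgn0262139; chromosome 3L, 366524 to 392633, minus strand) the thresholded peak spanned 377627 to 377854 with its summit at 377729. The summit lay 413 bp upstream of the second annotated start site and 14904 bp downstream of the first one, so that it stood inside the body of the longer transcripts. Its signal, a value per peak given by the authors without a unit and read here only within a list, was 573, which ranked 214 in the pooled list. A summit within 100 bp ranked 118, 445 and 172 of 30000 in replicates 1, 2 and 3. All 3 replicates thus placed it among their strongest 500 summits, at positions that spanned 44 bp. The 6 other trh candidates had signals of 43.1 to 63.5. The highest of these was not at a trh start site but 98 bp from a start site of CG1233, with a start site of Cdc5 also within 500 bp, and it had a replicate summit within 100 bp only in replicate 1, at rank 19643. No pooled candidate lay within 500 bp of the first trh start site. In replicate 3 a summit lay 475 bp downstream of that start, at rank 11957, while replicates 1 and 2 had none within 500 bp.

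The second tracheal fate gene, vvl, had no thresholded summit, but each replicate list of peaks and background held a summit within 500 bp of its start site. This gene (FBgn0086680; 3L, 6790158 to 6794941, plus strand) has 1 annotated start site. The strongest summit within 500 bp of it ranked 2857 in replicate 1, 9454 in replicate 2 and 3595 in replicate 3. In replicates 1 and 3 this rank was within the strongest 3816, the size of the thresholded list, and in replicate 2 it was not. These summits lay 63 bp upstream, 56 bp downstream and 241 bp downstream of the start and so were spread over 304 bp. The pooled list placed a single summit between them, 158 bp downstream of the start, with a signal of 85.3 at rank 8404. The strongest pooled candidate of vvl was intergenic, at 6797502, 7344 bp downstream of the start, with a signal of 102 and rank 6217. A summit within 100 bp of it ranked 17449 in replicate 1 and 9365 in replicate 3, and the nearest one in replicate 2, 119 bp away, ranked 6467. The other 4 candidates had signals of 42.5 to 61.2, with 1 in a coding exon and 1 in the 3' UTR.

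**Figure D1:**
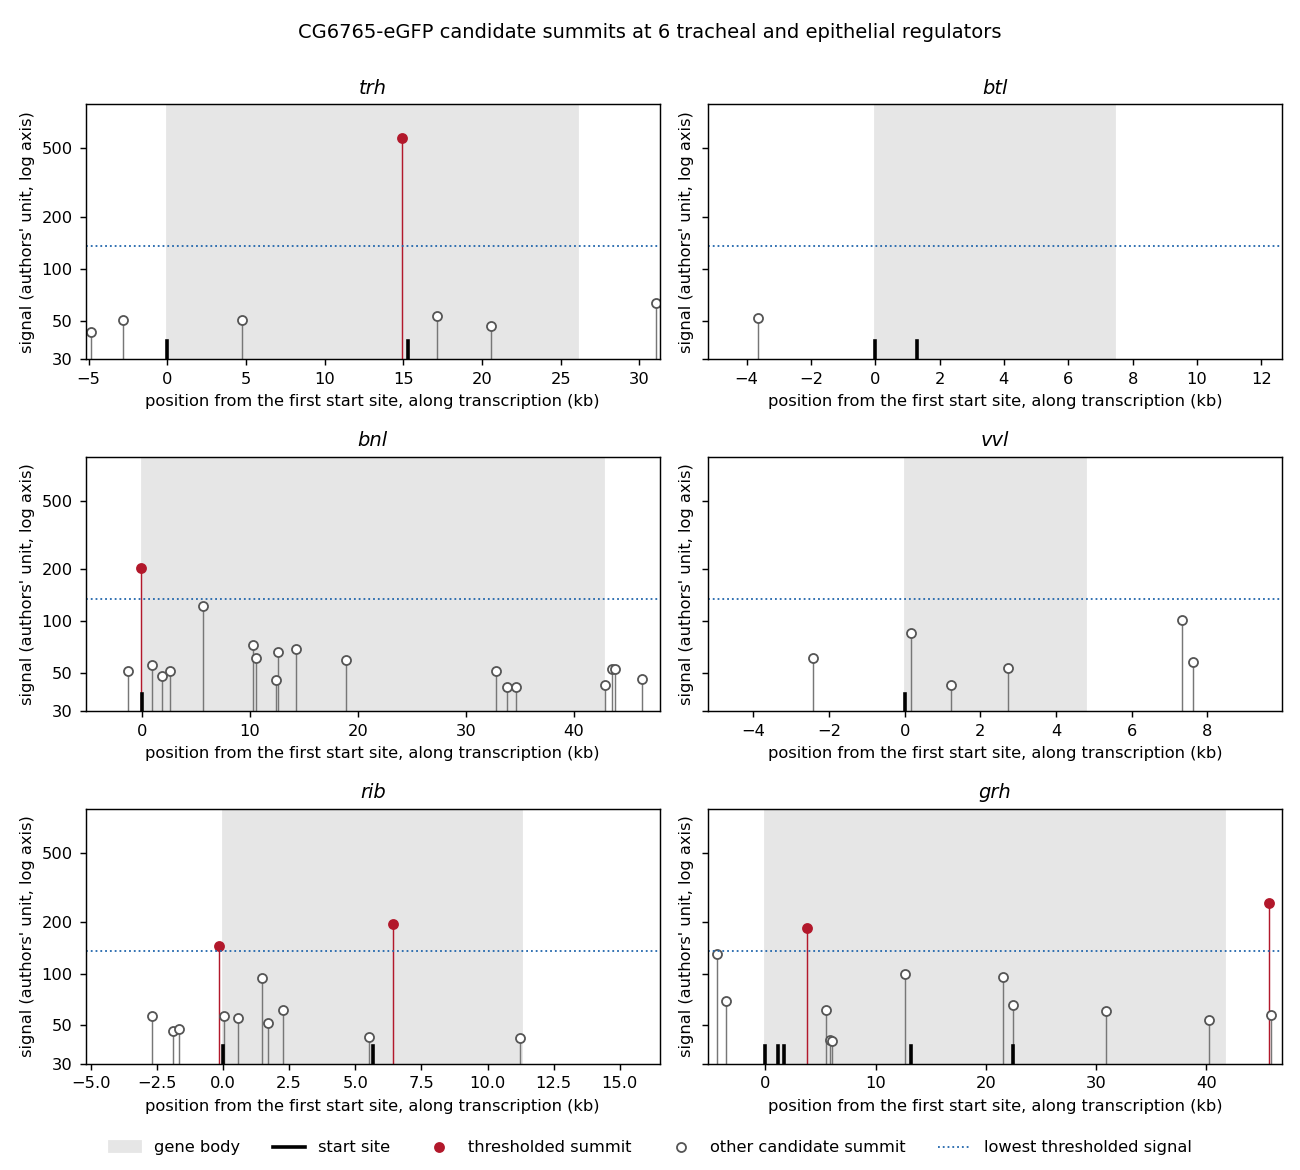
Signal of each pooled candidate summit (vertical axis, the authors' unit, log scale) against its position from the first annotated start site along the direction of transcription (horizontal axis, kb), with 1 panel per gene. Grey marks the gene body, black ticks the annotated start sites, filled red points thresholded summits and open points other candidates; the trh summit at a signal of 573 is the highest point, and btl and vvl have no point above the dotted line at the lowest thresholded signal, 135.

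The ligand and its receptor differed in how much signal their loci carried. The ligand gene bnl (FBgn0014135; 3R, 19794073 to 19836817, minus strand) had a thresholded peak at its start site, from 19836640 to 19837095, with its summit at 19836868. This summit lay 51 bp upstream of the only annotated start, with a signal of 204 and pooled rank 1719. In replicates 1, 2 and 3 a summit within 100 bp ranked 1276, 1784 and 3582. All 3 ranks were within the strongest 3816, and the replicate summits spanned 67 bp. No start site of another gene lay within 500 bp of it.

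The remaining 18 candidates of bnl were weaker and spread over the locus. The strongest was in an intron, at 19831141, 5676 bp downstream of the start, with a signal of 122 at pooled rank 4510. A summit within 100 bp ranked 4968, 3927 and 15694 in replicates 1, 2 and 3, so that it recurred in each list but stood outside the strongest 3816 in each. The other 17 candidates had signals of 41.8 to 72.9. The bnl body also holds the transfer RNA gene tRNA:Thr-AGT-1-7, and a candidate 314 bp from its start site had a signal of 41.8 and a replicate summit only in replicate 2, at rank 8547. Another candidate in the 3' flank lay 412 bp from the start of tRNA:Val-CAC-2-6, with a signal of 46.4.

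The receptor gene btl (FBgn0285896; 3L, 14075772 to 14083229, plus strand) had no candidate summit in its body or within 500 bp of either annotated start site. This held in the pooled list and, for the start sites, in the lists of replicates 1, 2 and 3. The btl window held 1 weak pooled candidate, in its 5' flank, with a signal of 51.9.

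The gene rib had 2 thresholded summits, the weaker one at its first start site and the stronger one in an intron. Its body (FBgn0003254) spans 19270078 to 19281396 on the plus strand of 2R. The promoter summit at 19269908 (peak 19269680 to 19270135) lay 170 bp upstream of the first start, with a signal of 145 and pooled rank 3282. A summit within 100 bp of it ranked 2773 in replicate 1, 6380 in replicate 2 and 7800 in replicate 3. Around this start the replicates differed in position: the strongest summit within 500 bp was 255 bp upstream in replicate 1 (rank 2773), 345 bp upstream in replicate 2 (rank 2804) and 337 bp downstream in replicate 3 (rank 5871).

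The intron summit of rib at 19276502 (peak 19276274 to 19276729) had a signal of 195 and pooled rank 1857. It lay 770 bp downstream of the second annotated start and 6424 bp downstream of the first. A summit within 100 bp ranked 2678 in replicate 2 and 1691 in replicate 3. In replicate 1 the nearest summit was 144 bp away, at 19276358, and ranked 3321, with an interval that overlapped the pooled one. The second start site itself had a pooled candidate 141 bp upstream with a signal of only 42.8, at rank 27520. The other 10 candidates of rib had signals of 42.2 to 94.1, and the highest of these was in an intron, 1477 bp downstream of the first start, at rank 7121.

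At grh the thresholded summit inside the gene was intronic, and none of its 5 annotated start sites had one within 500 bp. The gene (FBgn0259211; 2R, 17801132 to 17842820, plus strand) held the summit at 17804932 (peak 17804704 to 17805159), 2065 bp downstream of start site 3 and 3800 bp downstream of the first. Its signal was 184 at pooled rank 2099. A summit within 100 bp ranked 3346, 1919 and 3355 in replicates 1, 2 and 3, all within the strongest 3816. A stronger thresholded summit in the same window, at 17846799 with a signal of 257 and pooled rank 1096, lay in the 3' flank inside Orai and olf186-M and 100 bp from a start site of olf186-M. It stood 23234 bp from the nearest grh start, and its replicate ranks were 548, 2865 and 921.

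The start sites of grh carried little signal. Only the fifth had a pooled candidate within 500 bp, 17 bp downstream of it, with a signal of 65.4 at rank 13245. The strongest summit within 500 bp of the fifth start ranked 15052, 24307 and 10980 in replicates 1, 2 and 3. For start sites 2, 3 and 4 no replicate list held a summit within 500 bp, and for the first only replicate 2 did, at rank 13559. A pair of intron candidates lay just outside that distance, 564 bp upstream of start site 4 (signal 99.2, rank 3772 in replicate 2, rank 9093 in replicate 3, none within 100 bp in replicate 1) and 921 bp upstream of start site 5 (signal 95.7, rank 16063 in replicate 2, rank 3314 in replicate 3, none within 100 bp in replicate 1).

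**Figure D2:**
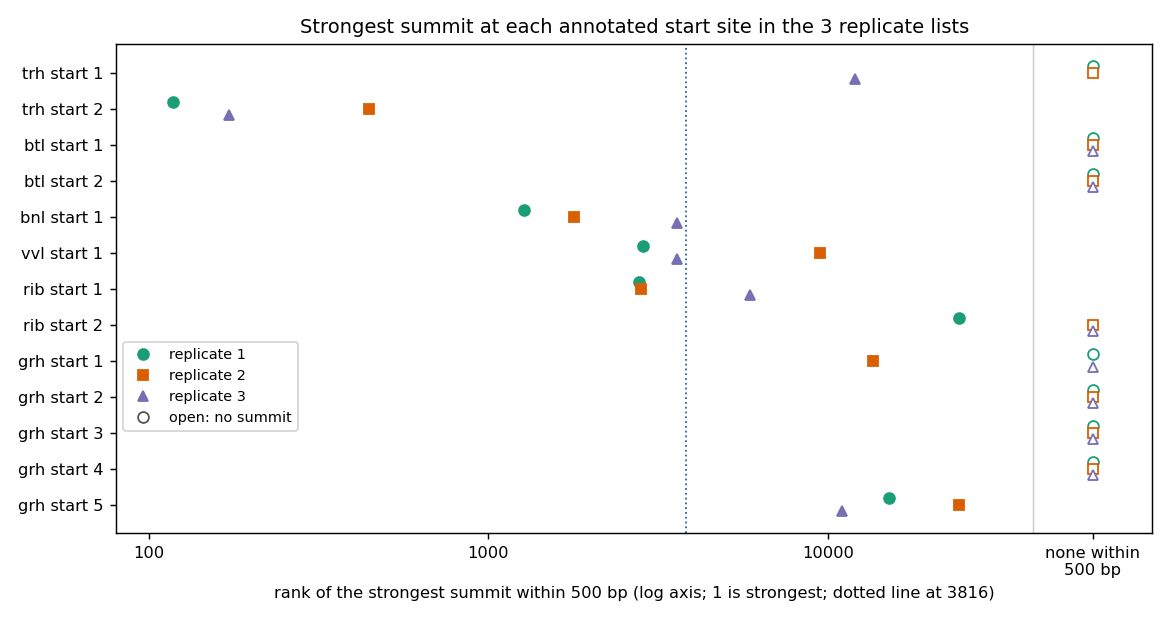
Rank of the strongest summit within 500 bp of each annotated start site of the 6 genes (horizontal axis, log scale, 1 is strongest) in the lists of replicates 1, 2 and 3, with start sites numbered along the direction of transcription. Open symbols mark lists with no summit there; trh start 2 and bnl start 1 lie left of the dotted line at rank 3816 in all 3 replicates, vvl start 1 and rib start 1 in 2 of 3, and both btl starts have only open symbols.

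At the level of genes, 3 of the 6 (trh, bnl and rib) had a thresholded summit within 500 bp of a start site, against 17.0% of all 13945 protein-coding genes. Counting any thresholded summit in the gene body or within 5 kb, 4 of the 6 had one (these and grh), against 42.9% of all genes. With only 6 genes these counts are given as descriptions without a test. Long windows hold more summits: among the 3486 genes with the longest windows, 15.0 kb or more, 56.9% had a thresholded summit in the window and 28.4% at a start site. The windows of trh (36.1 kb), btl (17.5 kb), bnl (52.7 kb), rib (21.3 kb) and grh (51.7 kb) are in that range, and the vvl window (14.8 kb) is just below it.

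Any pooled candidate within 500 bp of a start site was found at 5 of the 6 genes, all but btl, against 49.3% of all genes. One of the strongest 3816 summits of a replicate stood within 500 bp of a start site in at least 2 of 3 replicates at 4 of the 6, trh and bnl with 3 of 3 and vvl and rib with 2 of 3, against 15.6% of all genes. This count includes vvl, which had no thresholded summit. It does not ask that the replicate summits coincide or that the pooled signal be high. The pooled candidate at the vvl start had a signal of 85.3, and the lowest thresholded signal was 135. At the first rib start, which had a thresholded summit, the replicate summits spanned 682 bp. Why vvl did not pass was not tested. The vvl summits of replicates 1 and 3 lay 63 bp upstream and 241 bp downstream of the start, farther apart than the 100 bp used for shared summits.

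The density of candidates differed widely among the 6 genes. It was highest at rib, with 5.63 pooled candidates per 10 kb of window, and higher than in 90.6% of all protein-coding genes. It was 4.06 at vvl and 3.60 at bnl, above 75.6% and 69.5% of genes. At grh it was 2.52 and at trh 1.94, above 49.4% and 41.7% of genes, and at btl it was 0.573, above 12.0%. The median of the 6 was 3.06 per 10 kb, against 2.54 over all genes with quartiles at 1.15 and 3.99. The gene with the strongest site, trh, thus had fewer candidates per 10 kb than the median gene.

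**Figure D3:**
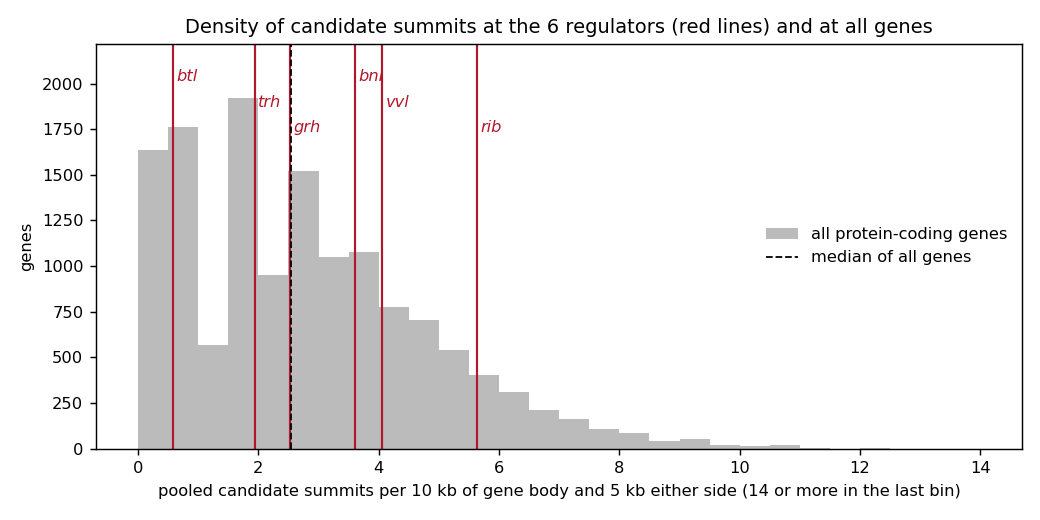
Number of protein-coding genes (vertical axis) by pooled candidate summits per 10 kb of gene body and 5 kb flanks (horizontal axis), with the 6 genes as red lines and the median of all genes as a dashed line at 2.54. Genes with 14 or more are in the last bin, and the lines run from btl at 0.573 to rib at 5.63.

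Most of the thresholded summits recurred between replicates, as the authors' threshold selects for. Of the 6 thresholded summits, 5 had a summit within 100 bp in all 3 replicates, the exception being the rib intron summit, against 77.3% of all thresholded summits. The median signal was 199 for the 6 and 193 for all thresholded summits, and the median pooled ranks were 1788 and 1908. Of the 52 other candidates, 2 recurred in all 3 replicates (3.85%), 22 in 2, 25 in 1 and 3 in none, against 11.3%, 35.1%, 42.6% and 11.1% of all other candidates. Those 2 were the bnl intron summit at rank 4510 and a summit in the 3' UTR of grh at 17841402, which ranked 18579 in the pooled list and 22908, 23723 and 18684 in the replicates.

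The lists of the single replicates placed 9, 8 and 7 of their strongest 3816 summits in the 6 windows in replicates 1, 2 and 3. Of these 24, 15 had a thresholded summit within 100 bp. The other 9 were 2 at the vvl start site, 2 at rib and 5 at grh. At rib these were the replicate 1 summit beside the thresholded intron summit and a replicate 2 summit 345 bp upstream of the first start. At grh, 3 of the 5 fell in the 5' flank inside the gene Dhit, ranking 3360 and 3395 in replicate 1 and 3213 in replicate 2, while the nearest summit of replicate 3 was 862 bp from the pooled one. The other 2 belonged to the intron candidates upstream of start sites 4 and 5. The pooled summit inside Dhit, at 17796742, had a signal of 129 at rank 4092 and was the strongest of the 52 candidates that did not pass. The weakest that passed was the rib promoter summit with a signal of 145, and the lowest signal in the whole thresholded list was 135.

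**Figure D4:**
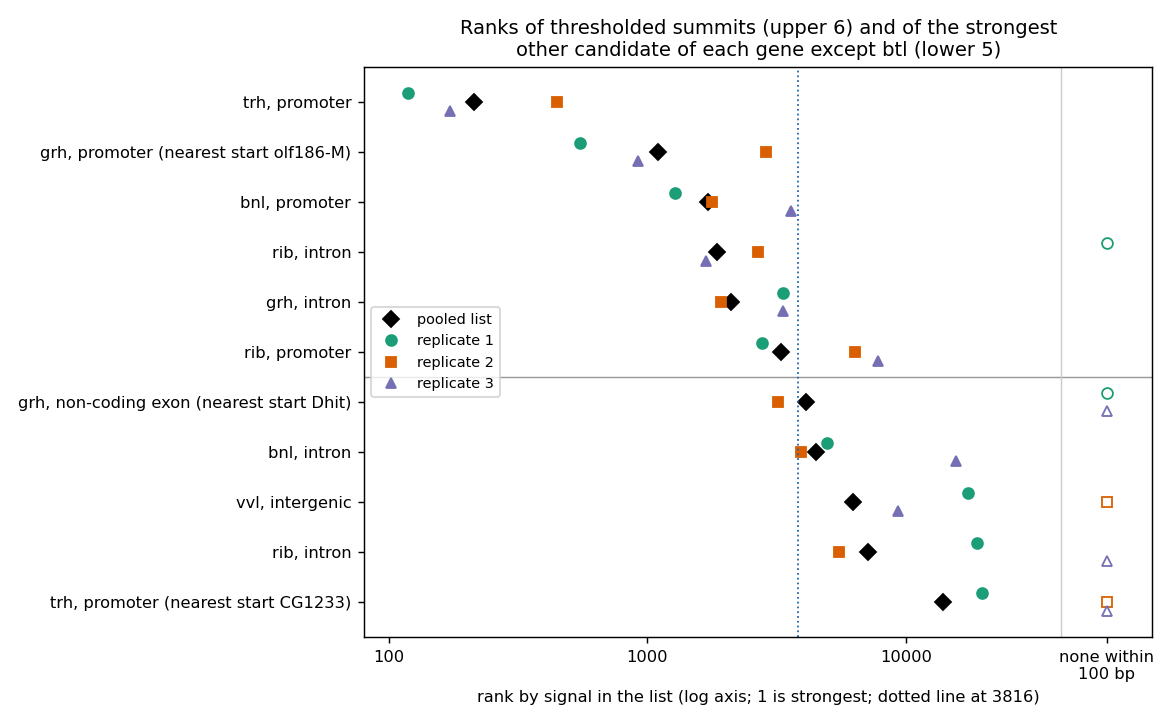
Ranks by signal (horizontal axis, log scale, 1 is strongest) of the 6 thresholded summits, above the grey line, and of the strongest other candidate of each gene except btl, below it, in the pooled list (black diamonds) and in replicates 1 to 3 (coloured symbols; open where no summit lay within 100 bp). The trh summit ranks between 118 and 445 in the replicates, and the rib intron summit has an open symbol in replicate 1.

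Of the 6 thresholded summits, 4 were at promoters, within 500 bp of any annotated start site, and 2 in introns, while 56.7% of all thresholded summits were at promoters and 31.8% in introns. One of these 4 was at olf186-M and the others were at trh, bnl and rib. The 52 other candidates were in introns in 24 cases (46.2%), between genes in 12 (23.1%) and at promoters in 9 (17.3%), against 44.7%, 18.2% and 27.7% of all other candidates. Of those 9, 4 were at a start site of the gene itself (vvl, rib in 2 cases and grh), and the rest, at start sites of other genes, included those at CG1233, olf186-M and transfer RNA genes. Over all 58 summits the nearest start site belonged to another gene in 19.

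Words known from tracheal, epithelial and general factors were counted under the summits. On either strand within 50 bp of the summit, ACGTG was present at 2 of the 6, the bnl and rib promoter summits. Of all thresholded summits, 8.28% held it. The bnl copy stood at the edge of its window. Among the 52 other candidates ACGTG was at 3 (5.77%), against 8.75% of all others. Neither AACCNGTT, a consensus of Grainy head, nor ATGCAAAT, the octamer of POU factors such as Vvl, was present at any of the 58, while 1.28% and 1.42% of all thresholded summits held them, so that a count of 0 was near the background. The word GAGAG of GAGA factor was at none of the 6, against 13.5% of all thresholded summits, but within 100 bp it was at 2 of the 6, against 27.6%; within 50 bp it was at 9 of the 52 others (17.3%) against 12.8% of all others. The words CAGGTAG of Zelda, TATCGATA of the replication-related element and GGTCACACT, a core promoter word, were at none of the 58, and their shares among all thresholded summits were likewise low, at 0.393%, 1.39% and 0.760%. The word CANNTG was at 1 of the 6, and 37.0% of all thresholded summits held it. A run of 7 A was at none of the 6, against 11.1% of all thresholded summits. The words can overlap, since a CANNTG with the bases CG in its middle also holds ACGTG. A match marks letters only and says nothing of which protein was bound there.

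Genes that act with these regulators were counted in 6 lists. Of 14 tracheal transcription factor genes, 4 had a start site with a thresholded summit inside 500 bp. Without trh, vvl, rib and grh, this left 2 of 10, pnt and aop, which encode an activator and a repressor of the ETS family that act below receptor tyrosine kinases, with signals of 204 and 161. Among genes of fibroblast growth factor signalling it was 8 of 16, and 7 of 14 without bnl and btl. The strongest besides bnl were pnt, sgl (173), which makes a precursor of heparan sulphate chains, and drk (167), an adaptor of receptor tyrosine kinases whose summit was also within 500 bp of a start site of mars. The gene pnt is in both lists. Each of these counts can be set beside the 17.0% of all genes, but list genes with long windows have the higher background given above.

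The fly has a second receptor of this family, htl, and further ligands, pyr and ths, which act in the mesoderm; they were picked out after their values were seen. A thresholded summit with a signal of 136, rank 3760 in the pooled list, lay 448 bp from a start site of htl, where btl had none. This signal was near the lowest of the thresholded list, 135, and a summit within 100 bp ranked 4647, 2490 and 8533 in replicates 1, 2 and 3. At pyr a thresholded summit 22 bp from a start site had a signal of 145. Within 100 bp of the pyr summit replicate 1 had none, and those of replicates 2 and 3 ranked 2906 and 4873. At ths 1 thresholded summit was in the window but none within 500 bp of a start site.

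Over all genes, 17.0% had a thresholded summit within 500 bp of a start site. Among genes with windows of 15.0 kb or more it was 28.4%. Genes of the epithelial lists had start-site summits in differing shares. It was 8 of 20 for septate junction genes, led by Atpalpha, the catalytic subunit of the sodium pump (signal 496, ranks 208, 477 and 376 in replicates 1, 2 and 3), cora (254), a FERM-domain protein, and dlg1 (193), a scaffold protein. Within 100 bp, the cora summit had no counterpart in replicate 3 and the dlg1 summit none in replicate 1. The start-site count was 4 of 12 for apical polarity and adherens junction genes, led by the kinase gene aPKC (237, with a start site of ckn also within 500 bp), par-6 (207, with CG8188 also within 500 bp) and shg (187), which encodes E-cadherin. The aPKC summit had no counterpart within 100 bp in replicate 2. In the epidermal wound response list the count was 2 of 9, kay (183) and Jra (159), the fly Fos and Jun genes. Genes of the tracheal lumen and chitin had 1 of 13, mmy (188), an enzyme that makes the precursor of chitin. Thresholded summits anywhere in the window were found in 8 of 14 and 12 of 16 genes of the first and second list, 12 of 20 septate junction genes, 9 of 12 polarity genes, 6 of 9 wound response genes and 2 of 13 lumen genes, against 42.9% of all genes. That share was 56.9% among genes with windows of 15.0 kb or more, and the lists were not matched for window length.

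**Figure D5:**
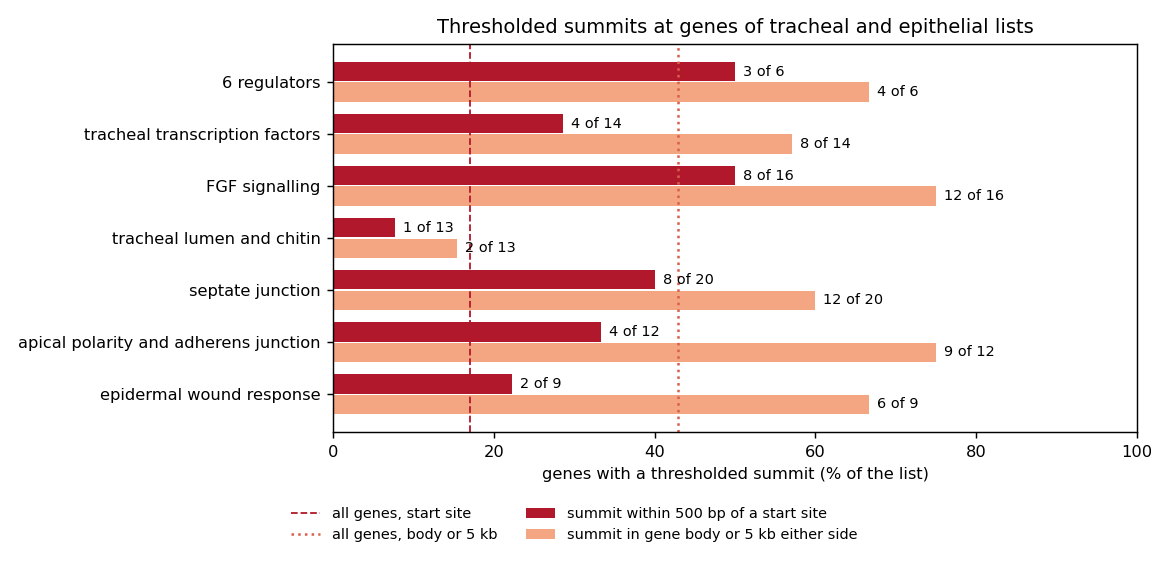
Share of genes of each list (horizontal axis, %) with a thresholded summit within 500 bp of a start site (dark bars) or in the gene body and 5 kb flanks (light bars), with counts beside the bars. The dashed and dotted lines mark the same shares over all protein-coding genes, 17.0% and 42.9%, not matched for window length. The lumen and chitin list lies below both lines.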

How the data were processed

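Peak lists on dm6 were analysed: 1 for each of 3 replicates, 1 for the replicates pooled, and 1 thresholded. Per the text files deposited with them, all but the last are peaks and background given to the reproducibility step. Aligner, peak caller and settings: not given in the sources used here. For every peak the authors deposited a signal, whose unit is not stated, and a q-value as −log10. Signals were compared, and ranked, inside 1 list at a time, since scales differ between lists of 30000. The −log10 q-value, as deposited, reached at most 3.67 in the thresholded list and was not used. Read depth is unknown from these lists, and the lists on dm3 were not used.

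Gene models were from Ensembl release 115 (BDGP6.54), with transposable elements left out, and sequence was from RefSeq. The 6 genes have the same ends in both, and all peaks end within the arms. Positions count from 1. Each summit was given 1 of 7 classes, by precedence: promoter came first, then untranslated exons (5' before 3'), other exons (coding before non-coding), introns and intergenic DNA. Summits within 100 bp were counted as shared, and the best ranked was taken. Of the list genes only wurst had no match. Python 3.11.15, numpy 2.4.6 and pandas 2.3.3 were used, and the matching step was checked on made-up positions.

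The genes, the lists, the words and the named genes (the 3 strongest of each list besides the 6) were chosen with earlier results of these data known. No test was run, since there is 1 group and no comparison group. Alternatives were other distances, flanks, shares of the list and replicates left out. The gene beside the btl flank candidate is not reported here.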

Additional observations from a re-analysis of the deposited data

How the results depend on the processing

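Of 44 alternatives over 15 counts, 34 stayed within 1.5 times the count given. With the gene body only, the windows held 3 thresholded summits instead of 6 and 37 pooled candidates instead of 58, as the windows are then smaller by construction. With summits shared within 50 bp, 3 of the 6 thresholded summits recurred in all replicates instead of 5, and leaving out each replicate in turn gave 5 to 6. A shorter distance can only match fewer summits, and the share of all thresholded summits at 50 bp is not given here. Within 250 bp of a start site, septate junction genes with a thresholded summit numbered 5 instead of 8. At that distance polarity genes numbered 2 instead of 4 and wound response genes 1 instead of 2. Within 1000 bp wound response genes numbered 5. Such counts fall or rise with the distance by construction. The shares of all genes at 250 bp and 1000 bp are not given here, so the changes are not read as traits of the lists. Apart from the changed distance, the cause was not tested. The word ACGTG was at 1 thresholded summit within 25 bp instead of 2, against 4.35% of all thresholded summits. Within 100 bp GAGAG was at 2 of the 6, against 27.6% of all thresholded summits, and AACCNGTT at 1, against 2.67%, where neither was found within 50 bp; the wider window holds more letters by construction. Start-site counts of the 6 genes ran from 2 to 4 over all alternatives, for which the shares of all genes are not given here. No paired analysis was possible because there is 1 group and no test. Depth is unknown, so no limit on undetected sites can be given.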
